A study of Homo sapiens with 24 samples.

Results

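The E2F transcription factors were followed through cells that expressed 1 of 7 miRNAs. The members were chosen by symbol: E2F1 to E2F8, which bind DNA, and TFDP1 and TFDP2, which encode the DP partners of the family. All 10 were in the deposited count tables, among 29794 genes, and all 10 passed the filter on low counts in both batches of libraries.

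E2F proteins switch genes of DNA replication and cell division on and off through the cell cycle. E2F1, E2F2 and E2F3 are best known as activators at the G1/S transition, and RB1 holds them in check. E2F4 and E2F5 bind chiefly the related pocket proteins p107 (RBL1) and p130 (RBL2) and take part in repression in resting cells, whereas E2F6 acts as a repressor together with Polycomb proteins, and E2F7 and E2F8 are atypical repressors that bind DNA without a DP partner. The cells studied here descend from HEK293, a human embryonic kidney line that carries the adenoviral E1A gene, whose product binds pocket proteins and so limits these cells as a model of the RB and E2F pathway.

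The study used Flp-In T-REx 293 cells with a lentiviral vector from which doxycycline induces a GFP transcript. In the miRNA groups a hairpin for 1 of the miRNAs lies in an intron of that transcript, and the empty vector group carried the same vector without a hairpin. All groups, controls included, were selected with geneticin at 1 mg/mL for 6 days and received doxycycline at 1 µg/mL for 7 days. Batch 1 held empty vector, miR-1 and miR-122 with 2 libraries each, and batch 2 held empty vector, the miRNAs with a shared seed (miR-302a, miR-372, miR-373), miR-155 and miR-133a with 3 libraries each. Replicates were transduced and kept separately, so they are separate cell populations of 1 line, and the miRNAs are expressed outside the tissues in which they are known. Each miRNA is compared with the empty vector of its own batch, which asks how the level of each E2F mRNA differs when that miRNA is present.

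Library totals ran from 20153452 to 21595191 reads in batch 1 and from 13047400 to 35040778 reads in batch 2. All 7 measured markers of HEK293-derived cells were above 1 CPM (reads scaled to library size with TMM factors) in every library, and the summed level of muscle markers stayed between 0.522 and 2.53 CPM, of liver markers between 0.0602 and 0.542 CPM, of blood markers between 0 and 0.782 CPM and of pluripotent markers between 0 and 0.154 CPM. Replicate 2 of miR-155, miR-302a and miR-372 stood apart from the other libraries of its group, with chi-square values per degree of freedom of 15.2 to 33.6 in these pairs against 1.79 to 12.6 in all other pairs of replicates. The comparisons of batch 2 were therefore also fitted without these 3 libraries together (the reduced fit, added once the data had been looked at), and those values stand beside the results or in the closing section. More genes were called in that fit, from 8.21% with miR-155 to 24.2% with miR-302a against empty vector. In bulk RNA, a change in the share of cells in a phase of the cell cycle and a change of mRNA per cell cannot be told apart.

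The mature miRNAs are shown because the seed, bases 2 to 8, is what pairs with a target mRNA. Sequences are from RefSeq (GRCh38.p14), are written 5′ to 3′ and have the seed in capitals. The first 4 have a seed each, whereas miR-302a, miR-372 and miR-373 share 1 seed.
miR-1: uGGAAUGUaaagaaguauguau
miR-122: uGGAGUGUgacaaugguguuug
miR-133a: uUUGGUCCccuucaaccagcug
miR-155: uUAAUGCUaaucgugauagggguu
miR-302a: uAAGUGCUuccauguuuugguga
miR-372: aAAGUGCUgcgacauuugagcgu
miR-373: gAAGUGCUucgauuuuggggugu

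The longest annotated 3′UTR of each member was searched on the mRNA strand for matches to these seeds. An 8mer pairs with bases 2 to 8 and has an A opposite base 1 (ACATTCCA for miR-1, AGCATTAA for miR-155 and AGCACTTA for the miR-302a seed), a 7mer-m8 lacks that A, and a 7mer-A1 has the A but lacks the pair at base 8. Each site was counted once, as the longest of the 3 kinds. The sites below lie in the 3 genes that fell with the miRNA named, each with 10 bases on either side and the site in capitals, on GRCh37 and the minus strand for E2F7 and E2F2 and the plus strand for E2F3.
E2F7, miR-302a seed, 8mer, chr12:77417464-77417471: ggcgctgtctAGCACTTAactagggtaa
E2F7, miR-302a seed, 7mer-A1, chr12:77417194-77417200: aatttgccctGCACTTAttttacaacc
E2F7, miR-133a, 7mer-A1, chr12:77417135-77417141: cacatgtcaaGACCAAAataactgtga
E2F2, miR-155, 8mer, chr1:23834825-23834832: aaaagtttgtAGCATTAAgctggtttaa
E2F2, miR-155, 7mer-A1, chr1:23832943-23832949: agataattggGCATTAAacattaaact
E2F3, miR-155, 7mer-A1, chr6:20493040-20493046: tattttgtttGCATTAAgtaattttct
E2F7 also holds 1 7mer-A1 site for miR-155, and E2F2 and E2F3 hold 2 sites and 1 site for the miR-302a seed. A match describes these letters and does not show that the site is used.

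Over the family, 6 of 10 members held a match to the miR-302a seed (E2F1, E2F2, E2F3, E2F5, E2F7 and TFDP2), against 30.1% of the 13041 genes tested in batch 2 with an annotated 3′UTR. For miR-155 it was 4 of 10 (E2F2, E2F3, E2F7 and TFDP2) against 19.2%, and for miR-133a 3 of 10 (E2F3, E2F7 and TFDP2) against 17.2%. In batch 1, miR-122 had matches in 2 of 10 (E2F6 and TFDP2) against 25.7% of 13191 genes, and miR-1 in 1 of 10 (E2F5) against 24.1%. E2F4, E2F8 and TFDP1 held no match to any of the 5 seeds. The lengths searched differ widely, from 595 bases in E2F8 to 8085 bases in TFDP2 with a median of 1539 bases over the genes of batch 2, and the TFDP2 3′UTR is longer than the 2788 bases of exon over which its reads were counted.

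In empty vector cells the DP partner TFDP1 had the highest level of the family per length of gene, as RPKM (reads scaled to exon length and library size), with 114 ± 2.51 (SD, n = 2) in batch 1 and 109 ± 4.58 (SD, n = 3) in batch 2. E2F4 followed with 49.5 ± 0.965 and 46.0 ± 2.95, then E2F1 with 43.97 ± 0.429 and 44.6 ± 2.07, and E2F3 with 25.0 ± 0.161 and 26.0 ± 0.517. E2F7, E2F5 and E2F2 lay close together, between 10.9 and 12.6 in batch 1 and between 11.3 and 11.7 in batch 2. TFDP2 had 8.09 ± 0.227 and 7.53 ± 0.957, and E2F6 and E2F8 were the lowest, between 4.74 and 5.61. Ranges of neighbours in this order overlapped for E2F6 and E2F8 in both batches and, in batch 2, also for E2F4 with E2F1, E2F5 with E2F7 and E2F7 with E2F2. RPKM used the exon length in the deposited tables, so transcripts that use only part of a gene's exons are understated.

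**Figure D1:**
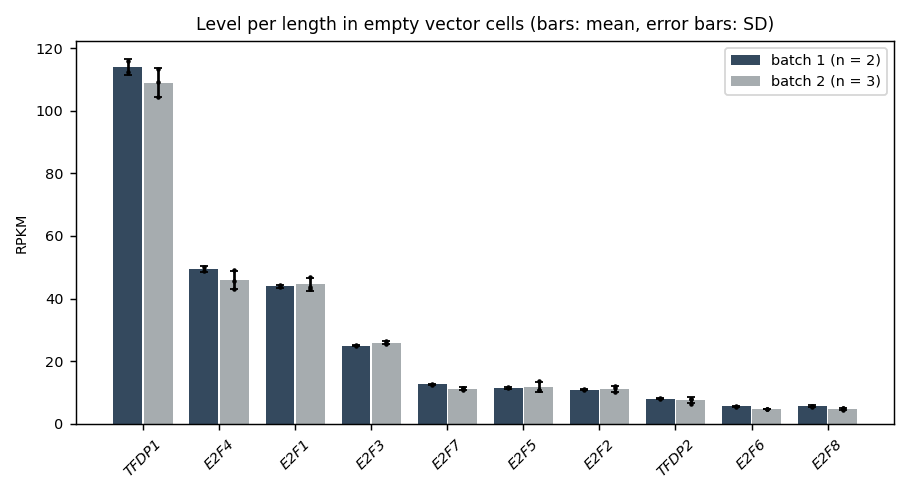
Level per length (RPKM, vertical axis) of the 10 genes in empty vector cells of batch 1 (dark bars, n = 2) and batch 2 (light bars, n = 3), with bars for means, error bars for SD and dots for libraries. TFDP1 is the highest in both batches, at 114 and 109, and E2F6 and E2F8 are the lowest.

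The comparisons with empty vector gave few calls for the family, where a call is an adjusted p under 0.05 in edgeR's quasi-likelihood test with Benjamini-Hochberg adjustment over all genes tested. With miR-1, 4 of 10 members were called (E2F5 lower, E2F1, E2F3 and E2F4 higher), beside 24.5% of the 14348 genes tested. With miR-122 it was 1 of 10 (E2F1 higher) beside 5.92%, and with miR-133a 3 of 10 (E2F7 lower, E2F1 and E2F6 higher) beside 5.34% of 14054 genes. With miR-155, 2 of 10 were called (E2F2 and E2F3 lower) beside 7.63%. E2F7 was the 1 member called, lower, with miR-302a (7.88% of all genes), miR-372 (11.4%) and miR-373 (5.13%). TFDP1, TFDP2 and E2F8 were called in none of these 7 comparisons.

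**Figure D2:**
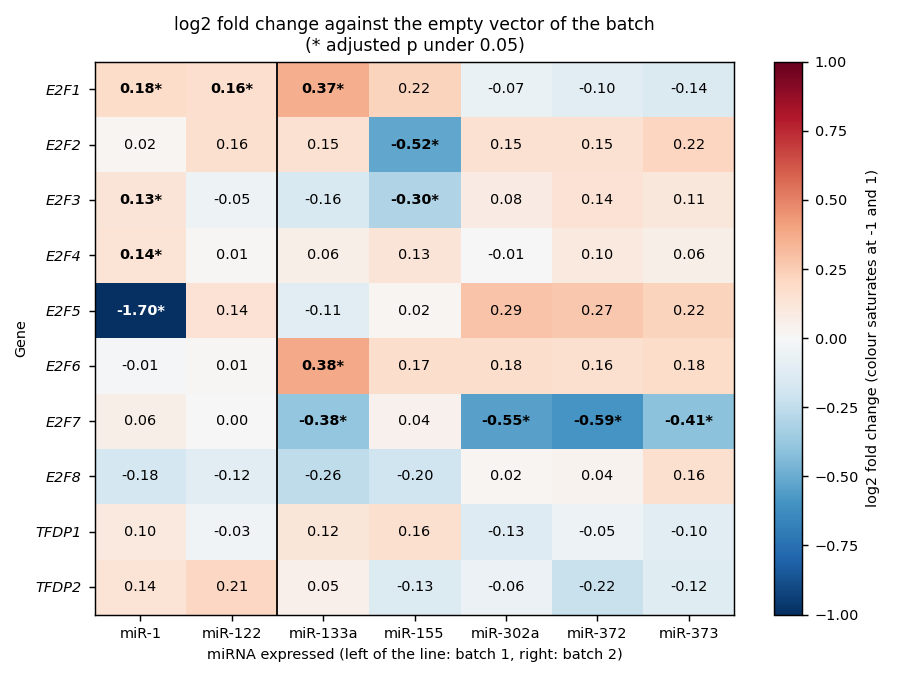
log2 fold change of each gene (rows) with each miRNA against the empty vector of its batch (columns), with an asterisk at an adjusted p under 0.05. E2F5 with miR-1 stands out at -1.70, and E2F7 is negative with miR-133a and with miR-302a, miR-373 and miR-372, from -0.59 to -0.38.

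E2F5 was the member that fell with miR-1, by more than any other change in the family. The study names E2F5 as a direct miR-1 target, from mRNA levels set against measured transcription. Its direct targets were required to hold a predicted site, and it also measured AGO binding for them as a class. The direction and the presence of a site were therefore both known when E2F5 was chosen, and neither is separate support here. The study also reports putative E2F5 binding sites enriched in regulatory elements less active with miR-1, which the mRNA levels used here do not measure. The E2F5 level was 24.02 and 24.9 CPM in the libraries with empty vector, 27.8 and 26.2 CPM with miR-122, and 7.51 and 7.48 CPM with miR-1. The miR-1 values, which rest on 161 reads or fewer, lay well apart from those of the other groups. Compared with empty vector E2F5 fell by 69.3%, a log2 fold change of -1.70 (SE 0.0903, adjusted p = 4.8e-11, edgeR), and the call held in all 11 alternative analyses, with log2 fold changes from -1.73 to -1.68. Set directly against miR-122, the log2 fold change was -1.85 (SE 0.0890, adjusted p = 5.5e-12, edgeR). The gene (ENSG00000133740.6) has 1 8mer site for miR-1 in its 3′UTR, at bases 542 to 549 of 656, and is the only member with a match to that seed.

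E2F5 and E2F4 share their pocket protein partners, so the share of E2F5 in their joint level was followed. E2F5 made up 18.98% ± 0.0702 (SD, n = 2) of the summed level per length of the pair with empty vector, 20.5% ± 1.61 with miR-122 and 6.12% ± 0.178 with miR-1. The summed level itself was 61.1 ± 1.24 with empty vector and 58.1 ± 1.88 with miR-1, as RPKM.

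The other calls in batch 1 were small and concerned E2F1, E2F3 and E2F4. E2F1, an activator, had 109 and 111 CPM with empty vector, 129 and 120 CPM with miR-1 and 126 and 120 CPM with miR-122. Both miRNA groups lay above the control, with log2 fold changes of 0.18 (SE 0.0471, adjusted p = 0.0087) and 0.16 (SE 0.0472, adjusted p = 0.044, edgeR), and did not separate from each other (0.02, 95% interval -0.08 to 0.11). The miR-1 call of E2F1 was lost without miR-1 replicate 1 (0.13, adjusted p = 0.18), and the miR-122 call without empty vector replicate 1 and without either miR-122 library (adjusted p of 0.072 to 0.40).

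E2F3 (120 and 119 CPM with empty vector, 128 and 134 CPM with miR-1) and E2F4 (102 and 105 CPM with empty vector, 117 and 111 CPM with miR-1) had log2 fold changes of 0.13 (SE 0.0437, adjusted p = 0.034) and 0.14 (SE 0.0483, adjusted p = 0.039, edgeR). These are the smallest changes called in the comparisons with empty vector. The E2F3 call was lost without empty vector replicate 2 (0.13, adjusted p = 0.055), miR-1 replicate 1 (0.17, adjusted p = 0.067) or miR-1 replicate 2 (0.10, adjusted p = 0.26). The E2F4 call was lost without empty vector replicate 1 (0.12, adjusted p = 0.095), miR-1 replicate 1 (0.11, adjusted p = 0.30) or miR-1 replicate 2 (0.18, adjusted p = 0.057). E2F3 is overlapped on its own strand by AL136303.1 and E2F3-IT1, so its counts are uncertain to that extent.

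Between miR-1 and miR-122, 5 of 10 members were called, beside 31.2% of all genes. Besides E2F5, E2F2 was lower with miR-1 (-0.14, adjusted p = 0.041), and E2F3 (0.18, adjusted p = 0.0033), E2F4 (0.13, adjusted p = 0.044) and TFDP1 (0.13, adjusted p = 0.014, edgeR) were higher. Leaving out any 1 of the 4 libraries removed the E2F2 call (-0.16 to -0.12, adjusted p of 0.11 to 0.25). The E2F4 call went without either miR-1 library or without miR-122 replicate 1 (adjusted p of 0.058 to 0.39), that of E2F3 without miR-1 replicate 2 (adjusted p = 0.067), and that of TFDP1 without miR-1 replicate 1 or miR-122 replicate 1 (adjusted p of 0.17 and 0.14). Only E2F5 kept its call in every one of the 4 fits that left out a library.

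E2F7 was the member that fell with the 3 miRNAs that share a seed. This atypical repressor (ENSG00000165891.11, GRCh37 chr12:77415028-77459349, minus strand) had 67.6, 62.9 and 67.8 CPM with empty vector. It had 41.1, 51.2 and 43.4 CPM with miR-302a, 43.3, 41.8 and 46.6 CPM with miR-372, and 50.4, 49.6 and 49.0 CPM with miR-373. All 9 of these libraries lay below all 3 controls. The log2 fold changes were -0.55 (SE 0.101, adjusted p = 0.0020) with miR-302a, -0.59 (SE 0.100, adjusted p = 8e-04) with miR-372 and -0.41 (SE 0.0996, adjusted p = 0.019, edgeR) with miR-373. Together they gave -0.52 (SE 0.0797, adjusted p = 0.00021), a fall of 30.0%, where E2F7 was again the 1 member called, beside 15.4% of all genes. The joint value was -0.54 in the reduced fit (adjusted p = 1.1e-06), and 4 members were called beside 27% of all genes, with E2F2 (0.22, adjusted p = 0.016) and E2F5 (0.27, adjusted p = 0.017) higher and TFDP1 lower (-0.14, adjusted p = 0.039, edgeR).

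The calls for miR-302a and miR-372 held in all 13 alternatives each. Without the library that stood apart the values were -0.65 (adjusted p = 0.00063) for miR-302a and -0.55 (adjusted p = 0.0035) for miR-372. The miR-373 call was lost without empty vector replicate 1 (-0.40, adjusted p = 0.075) or replicate 3 (-0.39, adjusted p = 0.073), and without miR-373 replicate 1 (-0.42, adjusted p = 0.056), replicate 2 (-0.42, adjusted p = 0.057) or replicate 3 (-0.40, adjusted p = 0.079). No difference of E2F7 between the 3 miRNAs passed the test: it was 0.04 (95% interval -0.17 to 0.26) for miR-302a against miR-372, -0.13 (-0.34 to 0.08) for miR-302a against miR-373 and -0.18 (-0.39 to 0.03) for miR-372 against miR-373. In these 3 pairs edgeR called 0 of 10 members, with 0 at an unadjusted p under 0.05, beside 0% of all genes.

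With miR-133a, E2F7 had 52.4, 44.9 and 54.8 CPM, also below all 3 controls, and with miR-155 it had 69.5, 58.5 and 76.3 CPM, which span them. The log2 fold change with miR-133a was -0.38 (SE 0.100, adjusted p = 0.029, edgeR). That call was lost without any 1 of the 3 empty vector libraries (-0.37, -0.42 and -0.36 without replicates 1, 2 and 3, adjusted p of 0.097, 0.055 and 0.099) and without miR-133a replicate 1 (-0.40, adjusted p = 0.069) or replicate 2 (-0.30, adjusted p = 0.18). The direct comparison of miR-133a with miR-155 gave -0.43 (SE 0.100, adjusted p = 0.0058, edgeR) for E2F7, a call that held in all 13 alternatives. It was -0.52 in the reduced fit (adjusted p = 5.9e-05), and the calls of E2F7 with miR-133a (-0.38, adjusted p = 0.0012) and miR-373 (-0.41, adjusted p = 0.00055, edgeR) were kept. Against empty vector, miR-133a and miR-373 lose no library in that fit, so their kept calls are no separate support. They stand beside 16.1% and 12% of all genes called.

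E2F7 makes up most of the mRNA of the atypical pair. Its share of the summed level per length of E2F7 and E2F8 was 69.7% ± 1.94 (SD, n = 3) with empty vector of batch 2, 60.9% ± 4.77 with miR-302a, 60.0% ± 2.32 with miR-372 and 60.8% ± 3.24 with miR-373. With miR-133a the share was 68.0% ± 2.15, and the summed level was 12.8 ± 1.68 against 16.2 ± 0.433 with empty vector, as RPKM. E2F8 had 16.9, 12.7 and 18.9 CPM with miR-133a and 17.9, 19.97 and 20.001 CPM with empty vector, groups that overlap (log2 fold change -0.26, 95% interval -0.58 to 0.07).

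**Figure D3:**
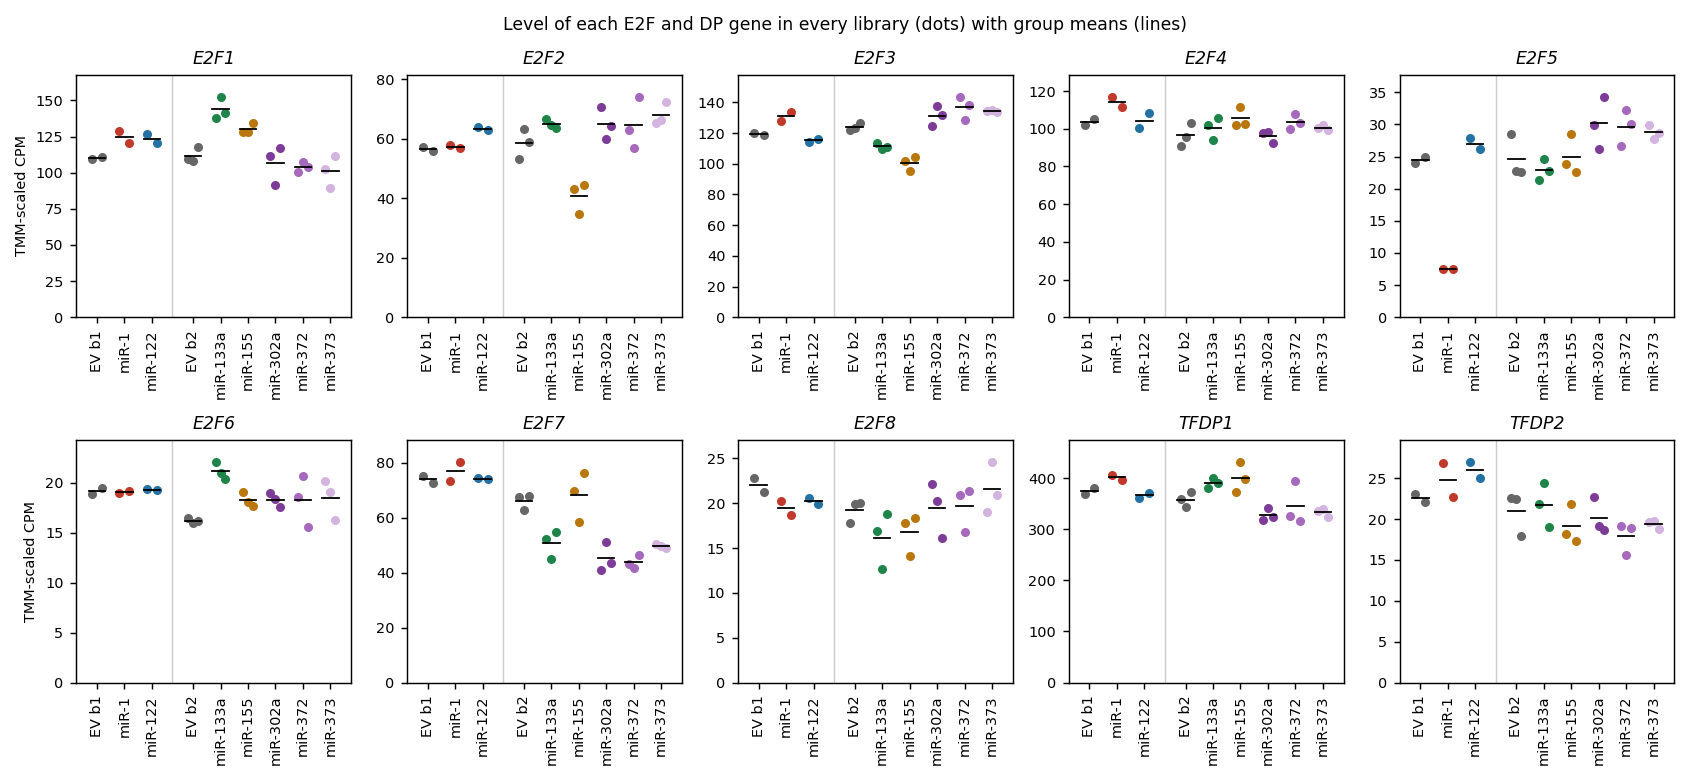
TMM-scaled CPM (vertical axes, each from 0) of the 10 genes in all 24 libraries (dots) with group means (lines), batch 1 left and batch 2 right of the grey line; EV is empty vector. E2F5 with miR-1 (7.51 and 7.48 CPM), E2F2 with miR-155 (34.6 to 44.3 CPM) and E2F7 with miR-302a, miR-372 and miR-373 (41.1 to 51.2 CPM) lie below the controls of their batch.

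With miR-155, the activators E2F2 and E2F3 were the members that fell. E2F2 (ENSG00000007968.6, GRCh37 chr1:23832930-23857725, minus strand) had 53.0, 63.3 and 59.0 CPM with empty vector and 43.1, 34.6 and 44.3 CPM with miR-155. E2F3 (ENSG00000112242.10, GRCh37 chr6:20402110-20493945, plus strand) had 121.8, 123 and 127 CPM with empty vector and 102, 95.3 and 105 CPM with miR-155. Neither gene's groups overlapped, but that also held for the uncalled E2F1, E2F6 and TFDP1. The share of all genes for which it held with miR-155 is not given here, so the lack of overlap adds no support. In both E2F2 and E2F3 the lowest value was that of miR-155 replicate 2. The log2 fold changes were -0.52 (SE 0.107, adjusted p = 0.0045) for E2F2 and -0.30 (SE 0.0644, adjusted p = 0.0065, edgeR) for E2F3, so that E2F2 fell by 30.4% and E2F3 fell by 18.8%. Both calls held in all 13 alternatives, and without miR-155 replicate 2 the values were -0.42 (adjusted p = 0.028) and -0.26 (adjusted p = 0.044).

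E2F2 was not called with any other miRNA against empty vector. It had 66.6, 64.6 and 63.6 CPM with miR-133a, all above the miR-155 libraries, and the direct comparison of miR-133a with miR-155 called E2F2 (log2 fold change 0.67, SE 0.107, adjusted p = 0.00018, edgeR) and E2F7, 2 of 10 members beside 16.7% of all genes. The difference of E2F2 was 0.57 in the reduced fit (adjusted p = 4.8e-05). E2F3 differed by 0.14 in that comparison (95% interval 0.01 to 0.28, adjusted p = 0.14). With miR-133a, for which it holds a 7mer-m8 site, E2F3 had 114, 110 and 111 CPM. These also lay below its controls, without a call against empty vector (-0.16, 95% interval -0.29 to -0.02, adjusted p = 0.17, edgeR). The third activator, E2F1, holds no site for miR-155 and had 128, 128 and 135 CPM with it, above the 109, 108 and 118 CPM of empty vector but not called (0.22, adjusted p = 0.13). The summed level per length of the 3 activators was 81.0 ± 3.21 with miR-155 and 81.8 ± 2.81 with empty vector (SD, n = 3 each), while the share of E2F2 in it was 9.65% ± 0.945 and 13.8% ± 1.12.

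E2F1 and E2F6 were higher with miR-133a, and neither holds a site for it. E2F1 had 138, 153 and 141 CPM with miR-133a, above all 3 controls (log2 fold change 0.37, SE 0.0897, adjusted p = 0.020, edgeR). The Polycomb-associated repressor E2F6 had 22.1, 20.9 and 20.4 CPM against 16.5, 15.9 and 16.2 CPM with empty vector (0.38, SE 0.107, adjusted p = 0.042). E2F6 was called with no other miRNA of batch 2, but its mean lay above the 16.2 CPM of empty vector with each. It was 18.5, 18.3 and 18.3 CPM with miR-373, miR-372 and miR-302a, and 18.3 CPM with miR-155. Of these miRNAs, only miR-155 had a mean of E2F1 above empty vector. The direct comparison of miR-133a with miR-155 called neither E2F6 (0.21, adjusted p = 0.20) nor E2F1 (0.14, adjusted p = 0.31, edgeR). The reduced fit leaves out no miR-133a or empty vector library, so it compares the same libraries with another estimate of the spread. Against empty vector its values were 0.37 for E2F1 and 0.38 for E2F6 (adjusted p = 0.0012 and 0.012, edgeR). With miR-133a it called 16.1% of all genes, where the main fit called 5.34%, so these lower adjusted p are no separate support. Neither call held in every alternative: that of E2F1 was lost without empty vector replicate 1 (0.35, adjusted p = 0.077) or replicate 2 (0.34, adjusted p = 0.085) and without miR-133a replicate 2 (0.32, adjusted p = 0.11) or replicate 3 (0.38, adjusted p = 0.054). The E2F6 call was lost without any 1 of the 6 libraries (0.35 to 0.41, adjusted p of 0.088 to 0.14) and when no filter on low counts was used (adjusted p = 0.078). Pseudogenes are named after E2F6 (4), E2F3 (2), E2F4 (1) and TFDP1 (3). Per the methods of the study, only reads of the highest TopHat mapping quality, those placed at 1 location, were counted, so reads that match such a copy equally well are left out.

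The miRNAs with the miR-302a seed and those of miR-133a and miR-155 differed over more of the family when compared directly, without the empty vector. In that comparison (9 libraries against 6), 7 of 10 members were called, beside 27.8% of all genes. E2F1 (-0.40, SE 0.0574, adjusted p = 3.4e-05), E2F7 (-0.35, SE 0.0645, adjusted p = 0.00047) and TFDP1 (-0.24, SE 0.0519, adjusted p = 0.0020) were lower with the miR-302a seed. E2F2 (0.36, SE 0.0683, adjusted p = 0.00057), E2F3 (0.34, SE 0.0417, adjusted p = 5.4e-06), E2F5 (0.30, SE 0.0771, adjusted p = 0.0059) and E2F8 (0.30, SE 0.0990, adjusted p = 0.030, edgeR) were higher. All 7 were also called in the reduced fit, with E2F7 at -0.42 (adjusted p = 2.4e-06) and E2F5 at 0.37 (adjusted p = 3e-04).

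The reference averages 2 groups that differ from each other, so each was also taken alone, a choice made with the data in view. Against miR-133a, 4 of 10 members were called beside 20.5% of all genes, and against miR-155 it was 5 of 10 beside 27.1%. E2F1 (-0.47 and -0.33), E2F3 (0.27 and 0.41) and TFDP1 (-0.22 and -0.26) were called against both (adjusted p of 0.022 or lower, edgeR). E2F2 had means of 65.8 CPM with the miR-302a seed, 64.95 CPM with miR-133a and 40.7 CPM with miR-155, and was called against miR-155 (0.70, adjusted p = 1.2e-05) and not against miR-133a (0.02, adjusted p = 0.91). E2F7 had 46.3, 50.7 and 68.1 CPM in the same order and was likewise called against miR-155 (-0.56, adjusted p = 3.3e-05) and not against miR-133a (-0.13, adjusted p = 0.29). E2F5 was called against miR-133a (0.37, adjusted p = 0.013) and not against miR-155 (0.24, adjusted p = 0.072), and E2F8 against neither (0.33 and 0.27, adjusted p of 0.077 and 0.12, edgeR).

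For 2 members, E2F1 and E2F3, no library of one side overlapped the other, which held for 6.6% of all genes. E2F1 ranged from 89.3 to 117 CPM over the 9 libraries with the miR-302a seed, with a 7mer-m8 site for that seed in its 3′UTR, and against empty vector it was not called (together -0.10, adjusted p = 0.36). The E2F8 call was lost without miR-133a replicate 2 (0.23, adjusted p = 0.097), miR-155 replicate 2 (0.25, adjusted p = 0.075), miR-302a replicate 1 (0.27, adjusted p = 0.059), miR-372 replicate 1 (0.29, adjusted p = 0.051), miR-372 replicate 3 (0.28, adjusted p = 0.050) or miR-373 replicate 2 (0.26, adjusted p = 0.059). The other 6 calls of the joint comparison held in all 22 alternatives that kept both reference groups.

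E2F5 in batch 2 had 28.6, 22.8 and 22.6 CPM with empty vector, and the median of the 9 libraries with the miR-302a seed was higher than the median control. It had 30.0, 26.2 and 34.3 CPM with miR-302a, 26.6, 32.2 and 30.1 CPM with miR-372, and 29.9, 27.7 and 28.7 CPM with miR-373. Empty vector replicate 1 overlapped these ranges, the others lay below them. Together the log2 fold change was 0.26 (SE 0.0982, 95% interval 0.05 to 0.47, adjusted p = 0.081, edgeR), not a call, which became one without empty vector replicate 1 (0.38, adjusted p = 0.039) or without miR-302a replicate 2 (0.29, adjusted p = 0.041). With miR-302a alone it was called in the reduced fit (0.38, adjusted p = 0.013) and not with them (0.29, adjusted p = 0.15, edgeR). The gene holds a 7mer-m8 site for this seed, and no fall was measured.

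The DP genes were not called against empty vector with any single miRNA. TFDP1 was between 342 and 372.5 CPM with empty vector of batch 2, and its log2 fold changes over the 7 comparisons with empty vector lay between -0.13 and 0.16. It would have been called with miR-1 without empty vector replicate 2 (0.13, adjusted p = 0.023). TFDP2 was between 17.9 and 22.6 CPM in the same controls and its log2 fold changes lay between -0.22 and 0.21. TFDP2 holds 5 sites for miR-122, more than any other member for any miRNA here, in an annotated 3′UTR of 8085 bases. Its reads were counted over 2788 bases of exon, so the mRNA measured need not hold all of these sites. TFDP2 had 27.0 and 25.1 CPM with miR-122 against 23.0 and 22.1 CPM with empty vector (0.21, 95% interval 0.03 to 0.38, adjusted p = 0.16, edgeR). For E2F4, which holds no site, the log2 fold changes lay between -0.01 and 0.14.

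The mRNAs of E2F partners and of related complexes, called partner genes here, were examined with 3 lists. These held 3 pocket proteins, 6 genes of the MuvB core with B-MYB, and 8 genes of the PRC1.6 complex around E2F6. All 3 pocket protein genes were lower with miR-302a, miR-372 and miR-373, with median log2 fold changes of -0.52, -0.56 and -0.42 where the median of all genes was -0.001, 0.0033 and 0.003 and 7.88%, 11.4% and 5.13% of all genes were called. RB1 had 141, 143 and 135 CPM with empty vector and 70.0, 101 and 80.3 CPM with miR-302a, 74.4, 91.4 and 81.1 CPM with miR-372, and 90.5, 105 and 78.5 CPM with miR-373. Its log2 fold changes were -0.73, -0.76 and -0.61 (adjusted p = 0.00049, 0.00027 and 0.0032, edgeR), and all 3 calls held in 13 of 13 alternatives each. The reduced fit gave RB1 -0.90 with miR-302a (adjusted p = 9.8e-07) and -0.84 with miR-372 (adjusted p = 1.4e-06, edgeR). RB1 holds no match to the miR-302a seed, whereas RBL1 and RBL2 hold 1 each.

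RBL1 and RBL2 moved less. RBL1 had 45.3, 53.0 and 52.6 CPM with empty vector and RBL2 139, 139 and 131 CPM. RBL1 changed by -0.52, -0.56 and -0.42 (adjusted p = 0.0097, 0.0044 and 0.038) and RBL2 by -0.39, -0.46 and -0.34 (adjusted p = 0.011, 0.0022 and 0.028, edgeR) with the 3 miRNAs in the order above. The miR-372 calls of both held in 13 of 13 alternatives. All 6 calls were kept in the reduced fit, with RBL1 at -0.64 and -0.49 and RBL2 at -0.34 and -0.36 with miR-302a and miR-372 (adjusted p of 0.0034 or lower, edgeR). With miR-373 that of RBL2 was lost without any 1 of the 6 libraries (-0.37 to -0.33, adjusted p up to 0.10) and that of RBL1 without empty vector replicate 2 or 3 or miR-373 replicate 1 or 3 (adjusted p up to 0.18). With miR-302a that of RBL1 was lost without empty vector replicate 2 or miR-302a replicate 1 or 3 (adjusted p up to 0.068). In batch 1, RBL1 was lower with miR-1 (-0.21, adjusted p = 0.0088) and with miR-122 (-0.25, adjusted p = 0.0088), and RB1 with miR-122 (-0.18, adjusted p = 0.016). Those of miR-122 were lost without miR-122 replicate 1 (adjusted p of 0.20 for RBL1 and 0.32 for RB1), and that of RBL1 with miR-1 without either miR-1 library (adjusted p up to 0.074).

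**Figure D4:**
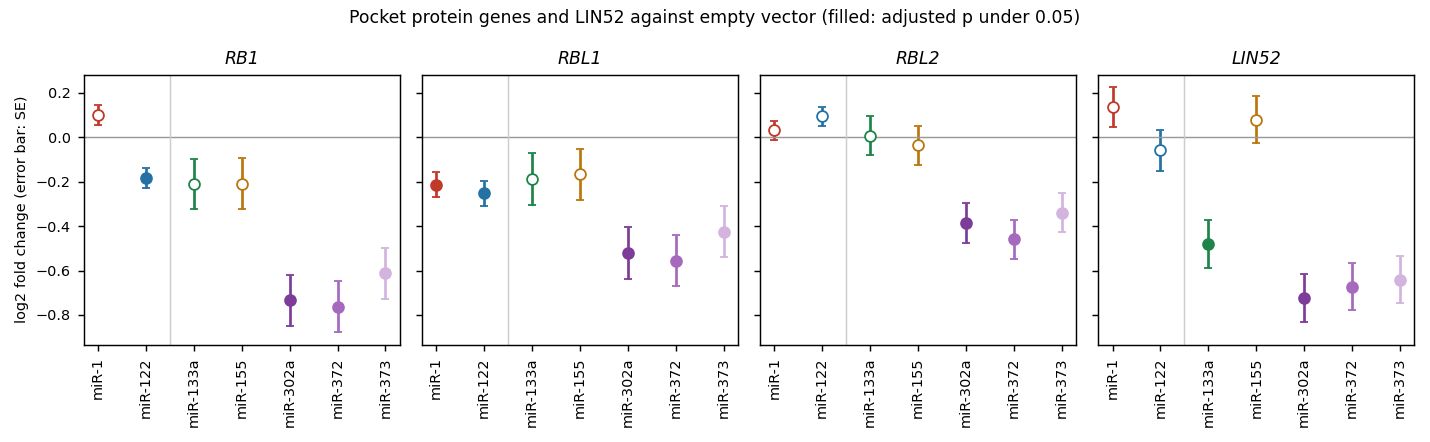
log2 fold change (vertical axis, error bars SE) of RB1, RBL1, RBL2 and LIN52 with each miRNA against the empty vector of its batch, filled where the adjusted p is under 0.05. All 4 genes lie below 0 and are called with miR-302a, miR-373 and miR-372, and LIN52 also with miR-133a (-0.48).

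Of the MuvB genes, LIN52, a subunit that links MuvB to p130 or B-MYB, was called with 4 miRNAs, as 1 of 6 genes of the list each time. It had 17.7, 15.4 and 15.3 CPM with empty vector, 9.61, 10.1 and 9.46 CPM with miR-302a, 10.5, 10.5 and 9.46 CPM with miR-372, 11.1, 9.45 and 10.5 CPM with miR-373 and 10.3, 11.7 and 12.5 CPM with miR-133a. The changes were -0.72, -0.67, -0.64 and -0.48 (adjusted p = 0.00033, 0.00047, 0.0011 and 0.011, edgeR), and the first 3 calls held in all 13 alternatives. The miR-133a call was lost without empty vector replicate 1 or miR-133a replicate 1 (adjusted p up to 0.077). The reduced fit gave LIN52 -0.76 with miR-302a and -0.70 with miR-372 (adjusted p = 0.00021 and 0.00034, edgeR). LIN52 holds 2 matches to the miR-302a seed, 1 of them an 8mer. MYBL2, which encodes B-MYB, was lower with miR-1 (-0.18, adjusted p = 0.0019; lost without miR-1 replicate 2, adjusted p = 0.060), and of the 8 PRC1.6 genes 1 was called, MGA with miR-122 (5.92% of all genes; -0.18, adjusted p = 0.041), which was lost without empty vector replicate 1 or either miR-122 library (adjusted p up to 0.34).

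Genes that E2F proteins are known to regulate at G1/S were called with miR-1, counting both directions, about as often as genes at large. Of 30 such genes, 6 were higher and 2 lower with miR-1 (median log2 fold change 0.06, all genes -0.0001), so 8 of 30 were called beside 24.5% of all genes. Of all genes, 10.8% were called higher with miR-1. With miR-122 it was 1 of 30, higher, beside 5.92%, with miR-155 1 of 30, higher, beside 7.63%, and with miR-372 3 of 30, all higher, beside 11.4% (medians 0.0014, 0.06 and 0.02). None was called with miR-133a, miR-302a or miR-373 (medians 0.06, -0.02 and -0.02, edgeR), where 5.34%, 7.88% and 5.13% of all genes were. These counts changed in the reduced fit: with miR-302a 3 of 30 were then higher and 7 lower, beside 24.2% of all genes, and with miR-372 2 were higher and 3 lower, beside 14.2%. With miR-155, 1 was then higher and 2 lower, beside 8.21%, and with miR-133a and miR-373 1 was higher each, beside 16.1% and 12%. CCNE1, which encodes cyclin E1, was higher with miR-1 (0.22, adjusted p = 0.0027) and miR-372 (0.36, adjusted p = 0.023). The miR-372 call was lost without that group's replicate 2 or without empty vector replicate 1 or 2 (adjusted p up to 0.12), and the miR-1 call without miR-1 replicate 2 (adjusted p = 0.052). The miR-372 value was 0.27 in the reduced fit (adjusted p = 0.014, edgeR).

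TK1, the thymidine kinase of S phase, had 99.2 to 108 CPM with empty vector and 136 to 172 CPM with miR-155, where it was the 1 gene of the list called (0.53, SE 0.104, adjusted p = 0.0034, edgeR). That call held in all 13 alternatives and, at 0.42 (adjusted p = 0.00045), in the reduced fit. With miR-1, RRM2 (0.16) and CDC25A (0.15) were higher and CHEK1 lower (-0.20), with miR-122 CDT1 was higher (0.17), and with miR-372 UNG was higher (0.28). Leaving out 1 library removed each of these calls in 1 to 4 of the fits without 1 library. For RRM2 it was miR-1 replicate 1, for CDC25A and CHEK1 either miR-1 library, and for CDT1 either miR-122 library. For UNG it was miR-372 replicate 2 or any empty vector library (adjusted p up to 0.12, 0.088, 0.091, 0.23 and 0.22 for RRM2, CDC25A, CHEK1, CDT1 and UNG). UNG was also not called in the reduced fit (0.16, adjusted p = 0.096).

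Of 16 mitotic genes, 8 were higher with miR-1 and none lower (median 0.12), where 24.5% of all genes were called and 10.8% were called higher. KIF20A (0.20), TPX2 (0.20) and CDC20 (0.19), which act in spindle assembly and mitotic exit, held in all 11 alternatives, and AURKA (0.16) was lost without miR-1 replicate 1 (adjusted p = 0.11). With miR-122, 2 of 16 were lower (median -0.06), beside 5.92% of all genes called. KIF11, the spindle motor Eg5, had 205 and 205 CPM with empty vector and 128 and 139 CPM with miR-122 (-0.62, SE 0.0453, adjusted p = 8.4e-09, edgeR), and CENPF was lower (-0.21, lost without empty vector replicate 1 or either miR-122 library, adjusted p up to 0.41). CENPF was also lower with miR-302a (-0.48) and miR-372 (-0.46), and AURKB higher (0.29 and 0.30), of which the miR-372 call of AURKB held in all 13 alternatives. AURKA was higher with miR-372 (0.23), and miR-133a, miR-155 and miR-373 gave no call. That made 2 of 16 with miR-302a and 3 of 16 with miR-372, beside 7.88% and 11.4% of all genes. In the reduced fit, 2 of 16 were higher and 5 lower with miR-302a, beside 24.2% of all genes, CENPF had -0.63 and -0.36 and AURKB 0.34 and 0.29 with miR-302a and miR-372 (adjusted p of 0.0099 or lower), and AURKA with miR-372 was not called (0.18, adjusted p = 0.062, edgeR). The other calls were lost in 3 to 5 of the 6 fits without 1 library: CENPF without empty vector replicate 1 or 2 and, with miR-302a, replicate 1 or 3 or, with miR-372, replicate 2 of the miRNA (adjusted p up to 0.12 and 0.087), AURKB with miR-302a without any control or miR-302a replicate 1 or 3 (adjusted p up to 0.11), and AURKA with miR-372 without any control or miR-372 replicate 1 or 2 (adjusted p up to 0.19).

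The genes with the most similar pattern were sought for 3 members over all 24 libraries, each value being log2 CPM centred on its batch, among 10524 genes. For E2F5 they were GJA1 (Pearson r = 0.956), PRCP (0.943) and ANXA2 (0.922), for E2F7 MTMR4 (0.949), ANKRD52 (0.930) and NCAPG2 (0.902), and for E2F1 REXO5 (0.901), UBXN6 (0.889) and CAMKK1 (0.887). These are descriptions: the points share groups, controls and library effects, and for E2F5 the 2 miR-1 libraries lie far from the others.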

How the data were processed

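RNA-seq libraries of polyadenylated RNA were made from 1000 ng of RNA. The authors trimmed reads, aligned them to hg19 with TopHat2 (2.1.1 in the submitters' processing notes), and counted reads over gene exons by strand with featureCounts. The deposited counts are raw, in a table per batch with a column of gene length in bases, which was used for levels per length. The authors also deposited tables of edgeR (3.24.3) fold changes, p-values and q-values, which were not used.

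In R 4.3.3 with edgeR 4.0.16, genes were kept in each batch by filterByExpr (minimum count 10), scaled by TMM and fitted by quasi-likelihood with all groups of the batch and group as the only factor. All genes tested entered the Benjamini-Hochberg adjustment of each comparison (threshold 0.05). The prior count was 0.125, and SE is the log2 fold change over the root of F. Values below zero are lower with the first group named. The precision of each level is set by its reads (11452 at most for a member in a library). Alternatives were DESeq2 1.42.0 (size factors, Wald test), a likelihood ratio test, no filter, more than 1 CPM in every library, only the groups compared, a replicate block and leaving out each library. Leaving out 3 libraries together, and each reference group alone, were added with the data in view.

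Symbols, exons and 3′UTRs came from a GENCODE annotation of GRCh37 (28543 of 29794 genes matched). The genes named were all 10 members, up to 4 called genes per list and miRNA by absolute log2 fold change (mean log2 CPM of at least 1), and the 3 closest patterns of E2F5, E2F7 and E2F1 (mean log2 CPM of at least 3). Of the genes this rule named, 1 from the G1/S list is not reported here. The members and lists were chosen with earlier results of these data known.

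Replicate numbers come from the labels. Deviations of same-numbered libraries from their group means correlated above 0.1 in all 3 pairs for miR-133a with miR-155 (r from 0.18 to 0.35), miR-302a with miR-372 (0.16 to 0.34), miR-133a with miR-372 (0.14 to 0.30), miR-155 with miR-302a (0.11 to 0.20) and miR-155 with miR-372 (0.27 to 0.61), so the numbers were taken as pairing these groups. The deviations did not pass this rule for any miRNA with its empty vector, for miR-133a with miR-302a or for miR-373 with any group. For miR-373, r ran from 0.02 to 0.57 with miR-302a and from 0.06 to 0.50 with miR-372. It ran from -0.06 to 0.34 with miR-155 and from -0.03 to 0.07 with miR-133a, so pairing of miR-373 was not settled. The block changed no call of a member in the direct comparisons of batch 2, the joint comparison of 9 with 6 libraries included. The fits were tested on simulated data.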

Additional observations from a re-analysis of the deposited data

How the results depend on the processing

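E2F5 with miR-1, E2F2 and E2F3 with miR-155 and E2F7 with miR-302a and miR-372 kept their calls against empty vector under every alternative run. For miR-1, 4 members called became 2 with the Wald test of DESeq2 and 2 with the replicate block (E2F3 adjusted p = 0.065, E2F4 adjusted p = 0.068), and 1 to 4 without 1 library. For miR-122, 1 became 0 with the Wald test, 0 with the replicate block (E2F1 adjusted p = 0.080) and 0 with only the groups compared, 2 with the likelihood ratio test (E2F2 adjusted p = 0.047), and 0 to 1 without 1 library. For miR-1 against miR-122, 5 became 3 with the Wald test, 3 with the replicate block and 2 to 4 without 1 library. Without 1 library, the 3 calls of miR-133a became 0 to 1, the 1 of miR-373 0 to 1 and the 1 of the miR-302a seed together against empty vector 1 to 2. Without the 3 libraries that stood apart, the 1 member called with miR-302a became 2 (E2F5 added), beside 24.2% of all genes. With miR-372 it became 2 (E2F3 added), beside 14.2%, and with these and miR-373 together 4, beside 27%. Taking miR-133a alone as reference turned the 7 calls of the joint comparison into 4. In batch 1 the fits without 1 library assume that the lone library varies like the other groups. Over all genes the block moved the calls with miR-1 from 3520 to 2939 and with miR-122 from 849 to 656. For miR-1 against miR-122 it moved them from 4481 to 3958. The share of all genes called was not taken for the other alternatives of this paragraph that left out 1 library or changed the test or groups. Their counts of members cannot be set against genes at large.

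The Wald test gave, of G1/S genes, 3 with miR-1, 2 with miR-155, 2 with miR-302a and 1 with miR-373, of mitotic genes 1 with miR-122, 2 with miR-133a, 4 with miR-302a, 5 with miR-372 and 1 with miR-373, and of partner genes 1 with miR-1, 0 with miR-122 and 1 with miR-155. Without the 3 libraries that stood apart, the calls of G1/S genes were 1 with miR-133a, 3 with miR-155, 10 with miR-302a, 5 with miR-372 and 1 with miR-373. Those of mitotic genes were 3 with miR-133a, 7 with miR-302a and 2 with miR-373, and that of partner genes 2 with miR-133a. Of all genes, that fit called 16.1% with miR-133a, 8.21% with miR-155, 24.2% with miR-302a, 14.2% with miR-372 and 12% with miR-373. The filter of 1 CPM gave G1/S counts of 2 with miR-122, 2 with miR-155 and 1 with miR-302a. The share of all genes called was not taken for the Wald test or this filter, so their counts cannot be set against genes at large. Over all genes the replicate block moved the calls with miR-133a from 750 to 1308, with miR-155 from 1073 to 1663, with miR-302a from 1107 to 1644, with miR-372 from 1599 to 2252 and with miR-373 from 721 to 1122. Deviations of same-numbered libraries of these groups and empty vector correlated at r from -0.19 to 0.22, the highest with miR-373. Besides the losses above (for miR-1 against miR-122, E2F2 and E2F4), the block changed no call of a member. The causes were not tested.

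Signs turned in 14 uncalled results near 0. E2F4 with miR-302a (-0.005) became 0.0038 with DESeq2 size factors and 0.0041 with the Wald test. Without the 3 libraries that stood apart, E2F5 with miR-155 became -0.0865, and with miR-302a E2F1 became 0.0321 and E2F8 -0.013. Without 1 library, values ranged from -0.0337 to 0.0176 for E2F6 and -5e-04 to 0.12 for E2F7 with miR-1, from -0.0466 to 0.065 for E2F4, -0.0133 to 0.0335 for E2F6 and -0.0167 to 0.0276 for E2F7 with miR-122, from -0.16 to 0.0122 for E2F5 and -0.0521 to 0.14 for TFDP2 with miR-133a, from -0.0876 to 0.13 for E2F5 and -0.046 to 0.14 for E2F7 with miR-155, from -0.14 to 0.0324 for E2F1, -0.0475 to 0.0447 for E2F4 and -0.0747 to 0.13 for E2F8 with miR-302a, and from -0.0233 to 0.14 for E2F8 and -0.15 to 0.0175 for TFDP1 with miR-372. Depth limits E2F5 with miR-1 (161 reads at most) and, in batch 2, E2F6 and E2F8 most.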
